A study of Mus musculus with 28 samples.

Results

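Alpha-fetoprotein and 6 other genes known from the fetal liver or from liver tumours were followed in the livers of mice with steatohepatitis, a disease of fat storage, inflammation and scarring. The genes were Afp, Igf2, Dlk1, Ly6d, Igf2bp3, Gpc3 and Cd24a. They were chosen by name, with earlier results of these data known. All 7 were found among the 20416 genes of each of 3 tables of liver RNA. The series held 28 livers of male C57BL/6 mice. The diet model had 4 livers of mice on a methionine- and choline-deficient diet (MCD) and 4 of mice on the matched control diet (CD). Sample titles give 4 weeks for these livers, without saying whether this is age or time on the diet. A label of study duration gives 5 weeks. The STAM model joins streptozotocin, a toxin of insulin-producing beta cells, given on postnatal day 2, with a high-fat diet from week 4 of age. It had 5 STAM and 5 control (Ctrl) livers from mice 4 weeks old and again 5 and 5 from mice 10 weeks old. The 4-week STAM livers are labelled as high-fat although the diet began in that week, and the time they spent on it is not given. Ctrl mice had a control diet, and the labels do not say whether they received a sham injection. For MCD mice no toxin is named, so the models differ in more than diet. No label ties each sample to a separate mouse. The p-values therefore rest on the spread among samples, and part of that spread may be technical.

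Most of these genes are active in the liver before birth and are shut down as the organ matures. Afp makes the main serum protein of the fetus, a relative of albumin, and is a long-used blood marker of hepatocellular carcinoma. Igf2 is a growth factor and Dlk1 a membrane protein of the Notch ligand family, and both are imprinted. Igf2bp3 binds messenger RNA, Igf2 mRNA among others. Gpc3 is a cell-surface proteoglycan used to diagnose liver cancer, Cd24a is a surface glycoprotein found on progenitor and bile duct cells, and Ly6d is a small surface protein held by a lipid anchor, best known from early B cells and squamous epithelium.

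Libraries held 16.2 to 25.9 M reads, so that 3 reads in 1 library amounted to at most 0.200 CPM. CPM is the read count relative to a library size that was scaled by the authors one table at a time, and levels in different tables are therefore not tested against each other. Of 10 hepatocyte genes, 8 were lower in MCD than in CD, 2 were lower in 4-week STAM and 8 were lower in 10-week STAM than in Ctrl livers, and under quantile normalization 1, 1 and 3 were lower and 1 was higher in MCD. With total-read scaling 5, 1 and 4 were lower and 2 were higher in MCD, and without 4-week Ctrl replicate 1 the count at 4 weeks was 4. Their summed level was 77813 to 103471 CPM in MCD and 107916 to 127437 CPM in CD livers, 120674 to 134051 CPM in 4-week STAM and 147953 to 164860 CPM in 4-week Ctrl livers, and 57028 to 71844 CPM in 10-week STAM and 100385 to 124472 CPM in 10-week Ctrl livers. On the authors' scaling the sums did not overlap in any of the 3 comparisons. The scaling factors were 1.11 to 1.23 in MCD and 0.832 to 0.899 in CD livers, and the sums were not computed with total-read scaling. As a share of all reads, Alb, 1 of the 10 genes, had a mean of 7.72% in MCD and 5.40% in CD livers. At 4 weeks its share was 9.22% in STAM and 11.0% in Ctrl livers, and at 10 weeks 4.07% and 6.44%. The part of the hepatocyte genes in the members' results was not tested. In bulk tissue, fewer cells of a type and less RNA per cell cannot be told apart. Scaling by total reads in place of the authors' factors moved the median log2 fold change of all genes to 0.49, against 0.07, in MCD, to 0.09, against 0.01, in 4-week STAM and to 0.33, against 0.05, in 10-week STAM. The share of called genes that were higher then was 86.1% against 52.9% in MCD, 83.7% against 66.6% at 4 weeks and 88.0% against 53.0% at 10 weeks. Of the 4-week Ctrl livers, replicate 1 had a summed level of 12 cell division genes of 37.0 CPM, where the others reached up to 426 CPM, and it was the lowest of its group for Afp, Igf2, Ly6d, Gpc3 and Cd24a.

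Most of the 7 genes were higher in diseased livers, but each model and age had its own combination. In MCD livers 4 of the 7 rose (Afp, Ly6d, Gpc3 and Cd24a), where 22.6% of all tested genes were called higher and 42.7% were called in either direction (limma, adjusted p under 0.05). In 4-week STAM livers 5 rose (Afp, Igf2, Dlk1, Ly6d and Cd24a), beside 6.52% of all genes called higher and 9.8% in either direction. In 10-week STAM livers 5 rose (Afp, Ly6d, Igf2bp3, Gpc3 and Cd24a), beside 25.3% called higher and 47.8% in either direction. None of the 7 was called lower in any of the 3 comparisons, where 20.1%, 3.27% and 22.5% of all genes were. Afp, Ly6d and Cd24a rose in all 3, Gpc3 in 2, and Igf2, Dlk1 and Igf2bp3 in 1 each. The median log2 fold change of the 7 was 1.62 in MCD, 2.17 in 4-week STAM and 2.33 in 10-week STAM, against 0.07, 0.01 and 0.05 over all tested genes. Because the 7 were chosen with earlier results of these data known, the shares and medians of all genes are given for scale only. They do not test whether the 7 stand out. All 7 passed the filter on low values in each table, which kept 15312 genes. Groups did not overlap, with diseased livers above controls, for 5, 4 and 4 members, against 20.9%, 6.38% and 16.8% of all genes, and 19.2%, 3.67% and 16.3% of all genes were separate in the other direction.

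**Figure D1:**
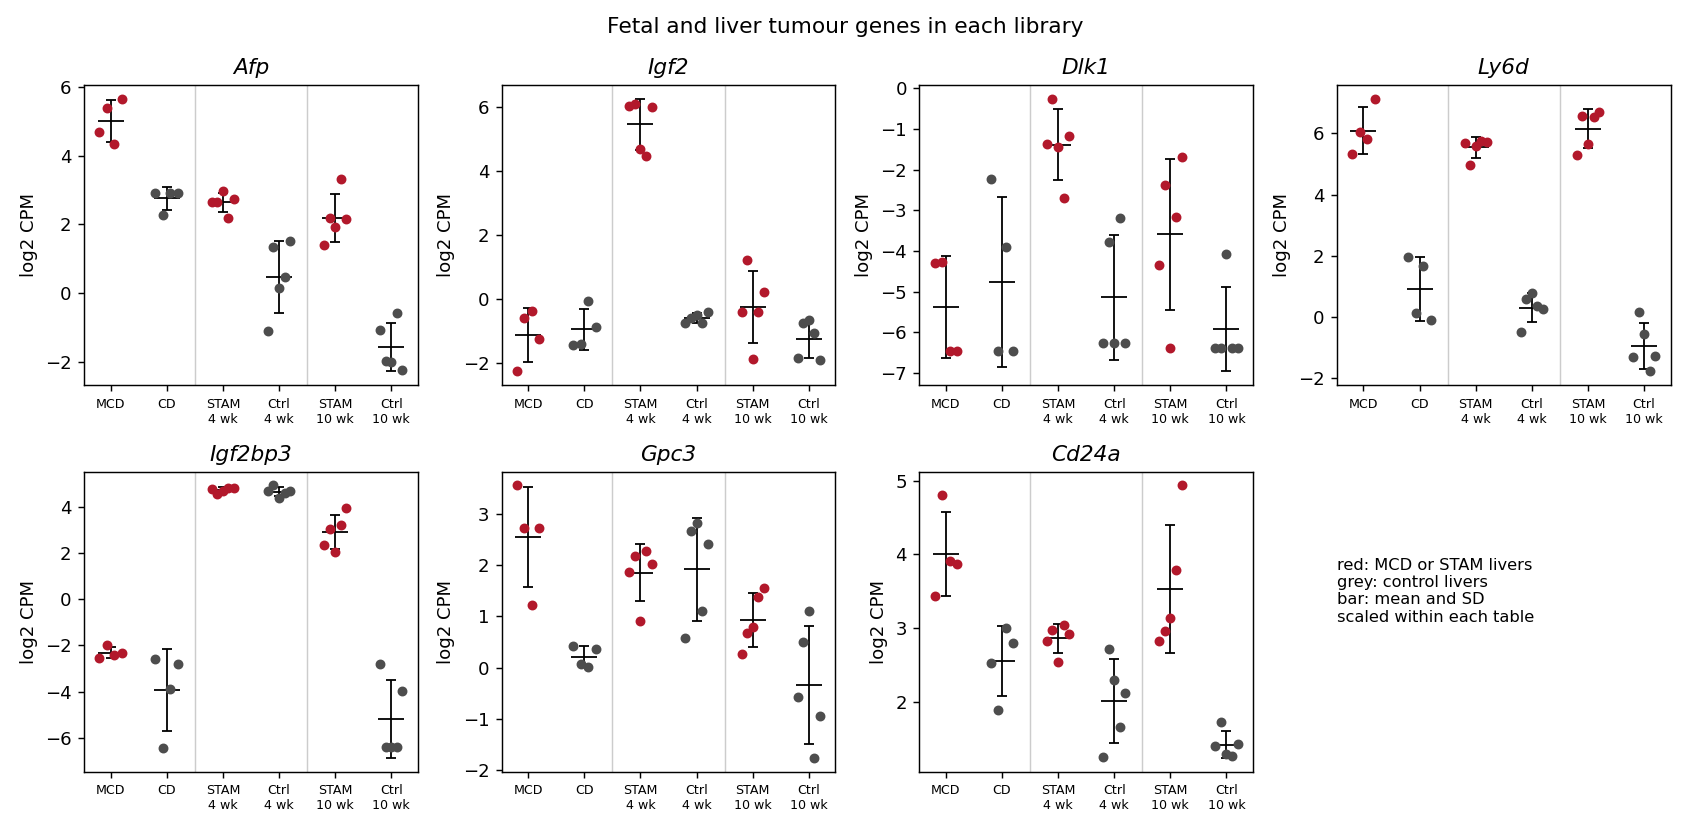
Level of each gene in each library, as log2 CPM on the vertical axis, with diseased livers in red, control livers in grey and bars for mean and SD. Ly6d and Afp lie apart from their controls in all 3 tables, Igf2 is high in 4-week STAM livers, and Igf2bp3 is high in both 4-week groups and in 10-week STAM livers; the lowest points of Dlk1 and Igf2bp3 are libraries with no read.

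The start of the Afp gene is shown first, since Afp is the founding marker of the group, beside that of Igf2bp3, whose 10-week STAM livers had 78 to 359 reads where Ctrl livers had 0 to 2. Afp lies at chr5:90490714-90508907 on the plus strand, 14110 bases after the end of Alb. Igf2bp3 lies at chr6:49085218-49214954 on the minus strand. Both stretches are the 250 bases before the RefSeq transcript start in GRCm38.p6, chr5:90490464-90490713 (plus strand) and chr6:49214955-49215204 (minus strand), written 5′ to 3′ along the gene. Of the 7 genes, 5 had an entry in this RefSeq table. Capitals mark TATAAA and GTTAAT and GTTAAC, letters bound by the liver factor HNF1, in Afp, and the E-box CACGTG in Igf2bp3, each searched on both strands.
Afp: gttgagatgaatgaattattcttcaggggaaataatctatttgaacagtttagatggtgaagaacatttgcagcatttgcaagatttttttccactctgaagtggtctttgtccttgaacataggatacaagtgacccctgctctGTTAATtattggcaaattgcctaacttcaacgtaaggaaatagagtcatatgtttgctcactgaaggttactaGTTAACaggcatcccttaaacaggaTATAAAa
Igf2bp3: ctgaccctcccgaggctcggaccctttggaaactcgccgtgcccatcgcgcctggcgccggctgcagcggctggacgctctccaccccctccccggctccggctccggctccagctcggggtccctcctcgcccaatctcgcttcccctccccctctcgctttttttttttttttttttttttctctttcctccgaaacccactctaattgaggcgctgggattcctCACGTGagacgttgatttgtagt
In the Afp window TATAAA began 7 bases before the RefSeq start, GTTAAC 32 bases and GTTAAT 105 bases before it. GENCODE places the Afp start further downstream, at chr5:90490737, and each of these distances is longer when counted from there. CACGTG began 23 bases before the Igf2bp3 start. Of 32851 windows of the same length, 12.4% held TATAAA, 8.76% held GTTAAT or GTTAAC, and 6.02% held CACGTG. The Afp window was 36% G and C and that of Igf2bp3 60.4%, beside a median of 52.4% over all windows. These matches describe letters and do not show that a factor was bound.

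Afp, the fetal relative of albumin, was higher in every diseased group. Its level was 25.7, 41.4, 20.1 and 50.4 CPM in the MCD livers, against 7.57, 4.81, 7.5 and 7.54 CPM in the CD livers. The groups did not overlap, and the lowest MCD liver was above every CD liver, a log2 difference of 2.26 (SE 0.28, limma adjusted p = 9.66e-05), or 4.78-fold. Afp in 4-week STAM livers was 6.25, 6.25, 7.85, 4.56 and 6.67 CPM, against 0.451, 2.50, 1.09, 1.36 and 2.86 CPM in Ctrl livers. All 5 STAM livers were above all 5 Ctrl livers, by 2.17 on the log2 scale (SE 0.43, limma adjusted p = 0.00892). At 10 weeks the STAM livers had 2.61, 4.55, 3.75, 9.95 and 4.44 CPM, against 0.462, 0.243, 0.239, 0.657 and 0.203 CPM in Ctrl livers, which rest on 4 to 14 reads each. Again no liver overlapped, and the log2 fold change was 3.76 (SE 0.39, limma adjusted p = 8.2e-06), or 13.6-fold with a 95% interval of 7.62 to 24.1.

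The level of Afp in controls differed between the tables, with a mean of 6.86 ± 1.37 CPM in CD (SD, n = 4), 1.65 ± 1.0 CPM in 4-week Ctrl and 0.361 ± 0.195 CPM in 10-week Ctrl livers (SD, n = 5 each). These levels were scaled separately and were not tested against each other. Albumin itself, made from the neighbouring gene Alb, did not move with Afp. Its log2 fold change was 0.10 in MCD (limma adjusted p = 0.644) and fell by 0.96 in 10-week STAM (limma adjusted p = 0.000648). In 4-week STAM livers it fell by 0.34 (limma adjusted p = 0.0284). Quantile normalization sets the Alb differences to 0, as Alb was the most abundant gene in each library, and total-read scaling gave 0.53 in MCD with a limma adjusted p of 0.0061. The 4-week call for Alb was lost after scaling by total reads (0.0647), with the replicate block (0.107) and without Ctrl replicate 2, 3 or 5 or STAM replicate 3, 4 or 5 (limma adjusted p = 0.0515 to 0.0763). Afm, another gene of this family, fell in all 3 comparisons, by 0.91 in MCD, 0.59 in 4-week STAM and 1.39 in 10-week STAM. Of the 3 family genes beside Afp, 2 were lower in MCD, 2 in 4-week STAM and 3 in 10-week STAM, and 1, 1 and 2 with quantile normalization.

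Igf2, the fetal growth factor, was the gene that most set the 4-week STAM livers apart. These had 64.9, 68.8, 25.7, 22.3 and 64.8 CPM, from 474 to 1350 reads per library, against 0.580, 0.655, 0.688, 0.583 and 0.743 CPM in Ctrl livers, from 9 to 13 reads. The groups lay far apart, and within STAM 3 livers stood above the other 2. The log2 fold change was 6.06 (SE 0.32, limma adjusted p = 1.37e-06), which is 66.7-fold with a 95% interval of 41.0 to 108. By 10 weeks the STAM livers had 0.747, 2.32, 0.261, 0.742 and 1.15 CPM, against 0.264, 0.583, 0.622, 0.469 and 0.254 CPM in Ctrl livers. STAM livers 1, 2, 4 and 5 were above all Ctrl livers and the third was among them, and the log2 difference of 1.0 did not pass the test (95% interval -0.08 to 2.08, limma adjusted p = 0.117). Without STAM replicate 3 it was 1.40 (limma adjusted p = 0.0174), and the authors' deposited table gives 1.23 with an adjusted p of 0.0323. MCD livers had 0.197 to 0.756 CPM and CD livers 0.356 to 0.938 CPM, with a log2 difference of -0.17 (95% interval -1.23 to 0.89, limma adjusted p = 0.799).

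The Igf2 transcript lies at chr7:142650768-142661035 on the minus strand. Of its 50-base windows, 61.2% also occur in Gm49394, an overlapping gene on the same strand, so reads may have been shared between them by a counting rule that the sources do not state. Igf2os overlaps it on the other strand. The neighbouring insulin gene Ins2 had 0 reads in every liver. The library kit keeps strand, but the strand setting of the counting is not given.

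Dlk1, the membrane protein that marks fetal hepatoblasts, was at a few reads per liver throughout. The 4-week STAM livers held 7, 16, 8, 3 and 9 reads, against 0, 1, 0, 2 and 0 reads in Ctrl livers. No STAM liver was as low as a Ctrl liver, and the 43 reads against 3 correspond to a ratio of 12.2 after scaling (exact 95% counting interval 3.92 to 61.7). The fitted log2 fold change of 3.76 (SE 0.75, limma adjusted p = 0.00736) depends on the prior count and was 1.89 with a prior of 2 reads. At 10 weeks there were 1, 4, 0, 2 and 7 reads in STAM livers, against 0, 0, 1, 0 and 0 in Ctrl livers. These groups overlapped, the ratio of 14 reads to 1 was 12.2 (exact 95% counting interval 1.86 to 518), and the test gave a limma adjusted p of 0.0510. That value was 0.0302 without Ctrl replicate 3, which held the 1 read, 0.0088 without STAM replicate 3, 0.0386 with total-read scaling, and 0.0240 in the authors' deposited table. MCD livers had 1, 1, 0 and 0 reads and CD livers 4, 0, 1 and 0 reads, too few to show a difference at this depth (limma adjusted p = 0.694). The counting intervals cover counting error only.

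Igf2bp3, the mRNA-binding protein, was at the same level in both 4-week groups and differed in 10-week STAM livers. The 4-week STAM livers had 27.4, 23.7, 25.9, 28 and 28.2 CPM, against 26, 30.4, 21.1, 24.0 and 25.4 CPM in Ctrl livers. These ranges overlapped, and the log2 difference of 0.08 had a 95% interval of -0.13 to 0.28 (limma adjusted p = 0.702), which is within a 1.22-fold change. At 10 weeks the STAM livers had 5.11, 8.09, 4.07, 9.25 and 15.3 CPM, from 137, 178, 78, 187 and 359 reads. The Ctrl livers had 2, 0, 0, 0 and 1 reads. No 10-week Ctrl library held more than 2 reads, so the separation was complete, with a scaled ratio of 939 to 3 reads of 274 (exact 95% counting interval 93.4 to 1330). The fitted log2 fold change was 8.10 (limma adjusted p = 3.08e-06), 5.94 with a prior of 2 reads and 8.70 without Ctrl replicate 1.

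The MCD livers held 4, 6, 4 and 6 reads of Igf2bp3, against 3, 0, 1 and 2 reads in the CD livers. Every MCD liver was above every CD liver after scaling (exact permutation p = 0.0286, two-sided, the smallest that 4 against 4 allows), yet the fitted difference did not pass (log2 1.62, 95% interval -0.12 to 3.37, limma adjusted p = 0.123). Scaling by total reads gave 1.95 and a limma adjusted p of 0.0480. Malsu1, which overlaps Igf2bp3 on the other strand, did not move with it. Malsu1 was at 8.33 ± 0.776 CPM in 10-week STAM and 8.08 ± 0.736 CPM in 10-week Ctrl livers (SD, n = 5 each, limma adjusted p = 0.755).

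Ly6d, the lipid-anchored surface protein, showed a large rise in both models and at both ages. MCD livers had 40.5, 66.4, 56.7 and 141 CPM, against 3.86, 1.09, 3.14 and 0.935 CPM in CD livers. Even the lowest MCD liver was far above the highest CD liver, with a log2 fold change of 5.17 (SE 0.58, limma adjusted p = 0.000301). Ly6d in 4-week STAM livers was 51.8, 31.1, 48.1, 53.3 and 52.9 CPM, against 0.709, 1.49, 1.72, 1.26 and 1.2 CPM in Ctrl livers. Replicate 2 was the lowest STAM liver and still well above all Ctrl livers, and the log2 fold change was 5.23 (SE 0.23, limma adjusted p = 1.35e-07), or 37.6-fold. At 10 weeks there were 39.0, 94.6, 50.2, 91.8 and 105 CPM in STAM livers, against 0.396, 1.12, 0.670, 0.281 and 0.406 CPM in Ctrl livers, whose libraries held 6 to 23 reads. The gap was 7.09 on the log2 scale (SE 0.40, limma adjusted p = 1.03e-06), which is 136-fold with a 95% interval of 73.7 to 251.

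Per kilobase of transcript, Ly6d reached 110 CPM in MCD, 68.7 CPM in 4-week STAM and 110 CPM in 10-week STAM livers. On the same scale Afp reached 16.5 CPM in MCD livers, Igf2 13.3 CPM in 4-week STAM livers and Cd24a 9.41 CPM in MCD livers. Ly6d thus had the highest level per length of the 7 genes in each diseased group. The transcript spans chr15:74762056-74763567 on the minus strand, and none of its 50-base windows occurs in another annotated gene.

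Markers of other cell types were measured beside Ly6d, among them B cells and squamous epithelium, which are known to make it. Of 10 B cell genes, 1 rose in MCD, 0 in 4-week STAM and 2 in 10-week STAM, and with quantile normalization 0 rose in all 3 and 2 fell at 4 weeks. Their summed level was 6.57 to 13.3 CPM in MCD and 5.24 to 7.97 CPM in CD livers, 8.16 to 11.5 CPM in 4-week STAM and 8.51 to 17.3 CPM in 4-week Ctrl livers, and 7.08 to 9.07 CPM in 10-week STAM and 3.96 to 7.47 CPM in 10-week Ctrl livers. Of 8 plasmacytoid dendritic cell genes, 2 rose in MCD, 0 in 4-week STAM and 2 in 10-week STAM, with sums of 32.7 to 47.2 CPM in 10-week STAM and 29.0 to 33.5 CPM in Ctrl livers, and 5 rose in MCD with total-read scaling. Of 8 squamous epithelium genes, only 4 passed the filter and were tested in MCD, 1 in 4-week STAM and 4 in 10-week STAM. Among those tested, 3 rose in MCD and 0 in either STAM comparison, and 1 rose at 10 weeks with total-read scaling. Krt6a and Krtdap had 0 reads in every liver. The sum of the 8 genes was 2.87 to 4.59 CPM in MCD and 0.401 to 1.02 CPM in CD livers. It was 0.931 to 1.13 CPM in 4-week STAM and 0.580 to 1.54 CPM in 4-week Ctrl livers. At 10 weeks it was 1.12 to 1.96 CPM in STAM and 1.03 to 1.32 CPM in Ctrl livers. Of 10 neutrophil genes, 4 rose in MCD, 0 in 4-week STAM and 5 in 10-week STAM, with sums of 15.8 to 27.7 CPM in MCD and 5.27 to 14 CPM in CD livers. At 10 weeks 9 rose with total-read scaling and 3 with quantile normalization. MCD replicate 4, the liver with the most Ly6d (141 CPM), also had the highest sums of its group for B cell (13.3 CPM), neutrophil (27.7 CPM) and squamous genes (4.59 CPM). So did 4-week STAM replicate 4, with the most Ly6d of its group (53.3 CPM) and sums of 11.5, 24.6 and 1.13 CPM. Its B cell and squamous sums were within the range of the 4-week Ctrl livers. In 10-week STAM, replicate 5 had the most Ly6d (105 CPM) and the highest neutrophil (23.1 CPM) and squamous sums (1.96 CPM), but the lowest B cell sum (7.08 CPM). The part of these cells in the Ly6d result was not tested.

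Gpc3, the surface proteoglycan of liver tumours, rose in MCD livers and less surely in 10-week STAM livers. MCD livers had 11.8, 6.60, 2.31 and 6.60 CPM, against 1.32, 1.03, 0.993 and 1.27 CPM in CD livers. The groups were separate although MCD replicate 3 was close to the CD livers, and the log2 fold change was 2.35 (SE 0.40, limma adjusted p = 0.000596), or 5.09-fold. At 4 weeks Gpc3 was 3.63, 4.54, 1.86, 4.84 and 4.08 CPM in STAM livers, against 1.48, 6.32, 7.11, 2.14 and 5.32 CPM in Ctrl livers. The STAM livers lay within the range of the Ctrl livers, with a log2 difference of -0.06 (95% interval -1.08 to 0.95, limma adjusted p = 0.958). At 10 weeks STAM livers had 1.19, 1.59, 1.72, 2.57 and 2.94 CPM, against 0.660, 1.41, 2.15, 0.281 and 0.508 CPM in Ctrl livers.

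Only 2 of the 5 10-week STAM livers exceeded every Ctrl liver for Gpc3, and the log2 fold change of 1.27 (SE 0.48) was just past the threshold (limma adjusted p = 0.0436). The call was lost with quantile normalization (0.50, limma adjusted p = 0.374), without a variance trend (0.0747), with the replicate number as a block (0.0720), and without Ctrl replicate 1, 4 or 5 or STAM replicate 2, 3, 4 or 5 (0.0614 to 0.0984). In the authors' deposited table its adjusted p is 0.0635. Gpc3 lies at chrX:52272427-52613974 on the minus strand, with the antisense genes Gm14582 and A630012P03Rik inside its span.

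Cd24a, the progenitor and bile duct glycoprotein, rose in all 3 comparisons. MCD livers had 10.8, 27.9, 15.1 and 14.5 CPM, against 5.79, 3.72, 8.0 and 6.94 CPM in CD livers. The groups were separate, replicate 2 standing above the other MCD livers, and the log2 fold change was 1.45 (SE 0.30, limma adjusted p = 0.00251). Cd24a in 4-week STAM livers was 7.10, 7.90, 5.81, 8.23 and 7.58 CPM, against 2.39, 6.55, 4.93, 3.16 and 4.35 CPM in Ctrl livers. Here 4 of 5 STAM livers were above every Ctrl liver, and the difference was 0.85 (SE 0.23, limma adjusted p = 0.0370). This call did not hold without a variance trend (0.0723), with the replicate block (0.0631), or without Ctrl replicate 4 or 5 or STAM replicate 1, 2, 4 or 5 (limma adjusted p = 0.0631 to 0.0848). At 10 weeks STAM livers had 7.09, 7.77, 8.81, 13.8 and 30.6 CPM, against 2.64, 3.30, 2.44, 2.39 and 2.69 CPM in Ctrl livers, a log2 fold change of 2.10 (SE 0.35, limma adjusted p = 0.000564). STAM replicate 5 was the highest, and all 5 were above the Ctrl livers.

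Genes listed as markers of bile duct cells were measured beside Cd24a. Of 10 cholangiocyte genes, 6 rose in MCD, 5 in 4-week STAM and 7 in 10-week STAM, and none fell. Of all tested genes, 22.6%, 6.52% and 25.3% rose. With quantile normalization 3, 5 and 3 rose. Their summed level was 125 to 216 CPM in MCD and 78.5 to 102 CPM in CD livers, 118 to 161 CPM in 4-week STAM and 50.6 to 91.1 CPM in 4-week Ctrl livers, and 76.5 to 363 CPM in 10-week STAM and 28.6 to 48.0 CPM in 10-week Ctrl livers. The livers with the most Cd24a, MCD replicate 2 and 10-week STAM replicate 5, also had the highest sums, 216 and 363 CPM. Spp1, which encodes osteopontin, rose by 1.30 in 4-week STAM and by 2.01 in 10-week STAM, and Prom1, a progenitor surface protein, rose by 2.30 in MCD. Spp1 had a mean of 111 CPM in 4-week STAM and 151 CPM in 10-week STAM livers. The sums in STAM livers thus rest in large part on this gene. The part of these cells in the Cd24a result was not tested.

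**Figure D2:**
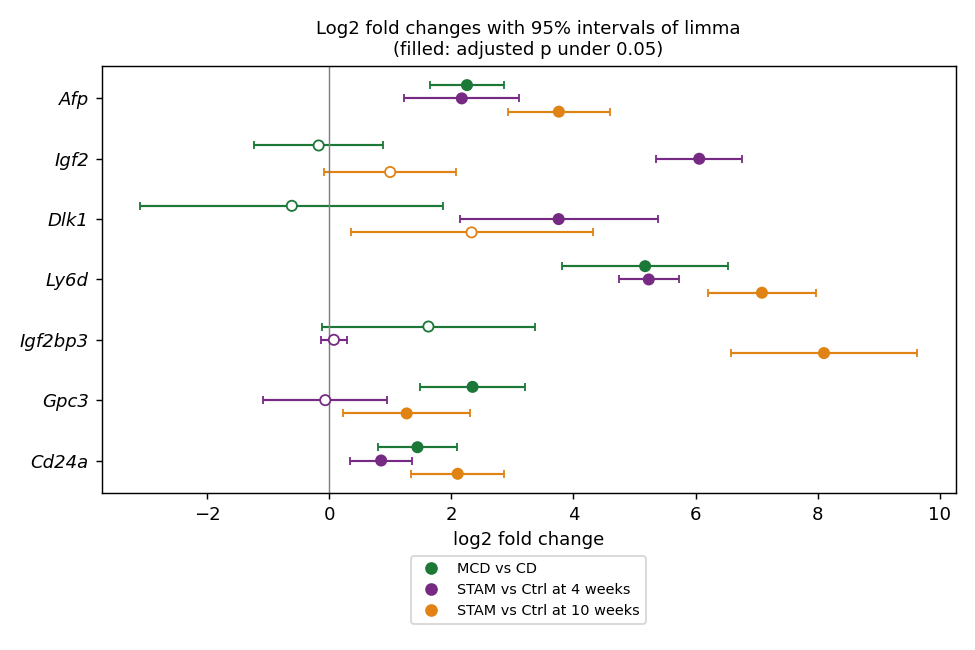
Log2 fold change of each gene on the horizontal axis with its 95% interval, diseased over control, in MCD (green), 4-week STAM (purple) and 10-week STAM livers (orange), filled where the limma adjusted p was under 0.05. Ly6d lies above 5 in each comparison, Igf2 does so at 4 weeks and Igf2bp3 at 10 weeks; the values of Igf2bp3 and Dlk1 rest on few reads and depend on the prior count.

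The size of the STAM response changed with age for 3 of the 7 genes, beside 20% of all genes called in either direction. The test compared the STAM effect at 10 weeks with that at 4 weeks. It was smaller at 10 weeks for Igf2, by -5.06 on the log2 scale (SE 0.62, limma adjusted p = 3.91e-05), and larger for Igf2bp3, by 8.03 (SE 0.79, limma adjusted p = 1.12e-05). Ly6d gained 1.85 (SE 0.48, limma adjusted p = 0.0112), a call that was lost with precision weights from voom (0.195). Background shares were 8.89% for larger and 11.2% for smaller effects. Afp differed by 1.59 (95% interval 0.32 to 2.86, limma adjusted p = 0.0703) and Cd24a by 1.25 (95% interval 0.33 to 2.18, limma adjusted p = 0.0519). Both passed without 4-week Ctrl replicate 1, at 0.00798 for Afp and 0.0196 for Cd24a, and with total-read scaling, at 0.0378 and 0.0274. For Afp the same held without 10-week Ctrl replicate 4 (0.0390) or 10-week STAM replicate 1 (0.0464), and for Cd24a without 4-week Ctrl replicate 4 or 10-week STAM replicate 1, 2 or 3 (0.0277 to 0.0487). Gpc3 (1.33, limma adjusted p = 0.198) and Dlk1 (-1.43, limma adjusted p = 0.438) did not pass, with intervals of -0.15 to 2.82 and -3.95 to 1.10.

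Set against the STAM effect at 4 weeks, the MCD effect was smaller for Igf2, by -6.23 (SE 0.56, limma adjusted p = 1.38e-07), and for Dlk1, by -4.37 (SE 1.36, limma adjusted p = 0.0211). It was larger for Gpc3, by 2.41 (SE 0.68, limma adjusted p = 0.0135). These 3 of 7 stood beside 26.1% of all genes called in either direction. The Dlk1 call was lost without CD replicate 1, which held 4 of the 5 CD reads (-3.52, limma adjusted p = 0.0538). Afp and Ly6d had differences of 0.08 (95% interval -1.16 to 1.33) and -0.06 (95% interval -1.34 to 1.22), so a difference of up to about 1.3 log2 units is within the error.

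Against the STAM effect at 10 weeks, the MCD effect was smaller for Igf2bp3, by -6.48 (SE 1.11, limma adjusted p = 0.000208), and for Afp, by -1.50 (SE 0.53, limma adjusted p = 0.0422). Of all genes, 27.9% were called in either direction and 15% lower. The Afp difference did not hold with a prior of 2 reads (0.0751), total-read scaling (0.0670), quantile normalization (0.225), voom (0.249), or no variance trend (0.0601). It was also lost without CD replicate 1, 3 or 4, MCD replicate 1 or 3, 10-week Ctrl replicate 2, 3 or 5, or 10-week STAM replicate 2, 4 or 5 (limma adjusted p = 0.0551 to 0.0879). Ly6d differed by -1.91 (95% interval -3.46 to -0.37, limma adjusted p = 0.0624) and passed without CD replicate 2 or 4, MCD replicate 4, 10-week Ctrl replicate 2 or 10-week STAM replicate 1 (0.0286 to 0.0469). Gpc3, Cd24a, Igf2 and Dlk1 did not pass, with differences of 1.08, -0.66, -1.17 and -2.94. These tests share the 10-week livers with the test of age, and the models also differ in diet, toxin and length.

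**Figure D3:**
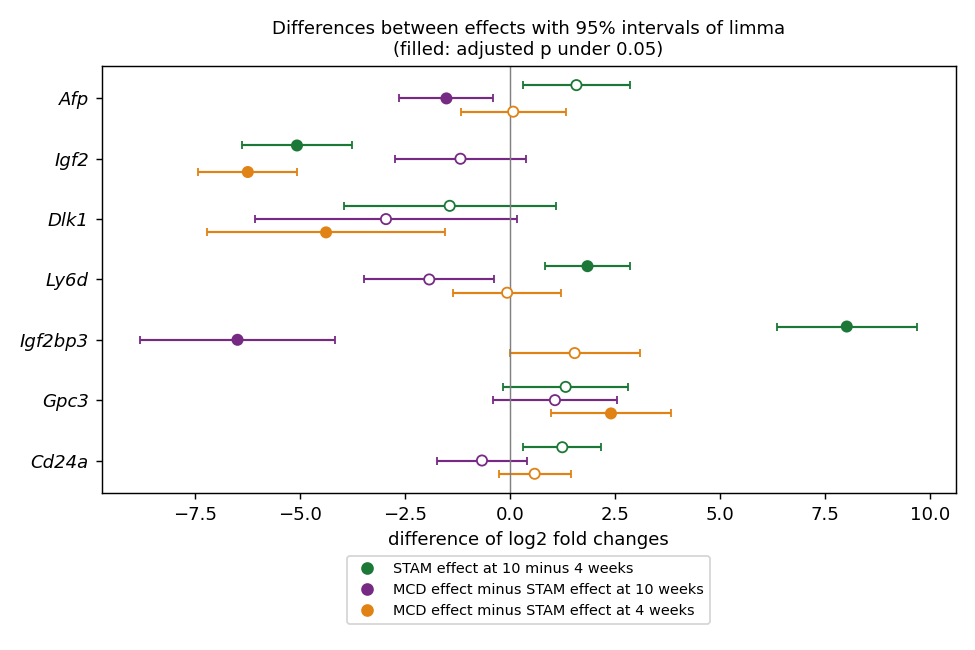
Difference between 2 log2 fold changes on the horizontal axis with its 95% interval, for the 10-week against the 4-week STAM effect (green) and the MCD effect less the 10-week (purple) or 4-week STAM effect (orange), filled where the limma adjusted p was under 0.05. Igf2 lies near -5 or -6 in both differences that involve the 4-week STAM effect, and Igf2bp3 lies far from 0 in both that involve the 10-week effect.

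Among 13 genes for factors known to control the Afp locus, 1 rose and 5 fell in MCD, 1 rose and 1 fell in 4-week STAM, and 2 rose and 8 fell in 10-week STAM livers. Every rise or fall given here for a listed gene passed limma's adjusted p of 0.05. By the same rule 22.6% of all tested genes rose and 20.1% fell in MCD, 6.52% and 3.27% at 4 weeks, and 25.3% and 22.5% at 10 weeks. With total-read scaling 4 of the 13 rose and 3 fell, 2 rose and 1 fell, and 2 rose and 2 fell. Zhx2, which represses Afp and Gpc3 after birth in mice, was at 16.4 ± 1.77 CPM in MCD and 25.2 ± 3.05 CPM in CD livers (SD, n = 4 each, log2 -0.61, limma adjusted p = 0.00147). It was at 25.3 ± 2.17 CPM in 10-week STAM and 32.3 ± 1.33 CPM in 10-week Ctrl livers (SD, n = 5 each, log2 -0.36, limma adjusted p = 0.0011), and its 4-week difference was -0.11 (limma adjusted p = 0.631). Neither fall passed with total-read scaling (log2 -0.19 and -0.07). Zbtb20, another repressor of Afp, fell in 10-week STAM livers, at 5.18 ± 1.43 CPM against 11.1 ± 3.55 CPM in Ctrl livers (SD, n = 5 each, log2 -1.09, limma adjusted p = 0.00239). Its differences in MCD (0.48, limma adjusted p = 0.0538) and 4-week STAM livers (-0.09, limma adjusted p = 0.791) did not pass, and the MCD rise passed with total-read scaling, with a stricter filter and without CD replicate 3 or MCD replicate 1 (0.00171 to 0.0487). Foxa1 and Foxa2, which open liver enhancers, fell by 1.67 and 1.02 in MCD, and by 0.69 and 0.79 in 10-week STAM, where total-read scaling ended both calls. Trp53 rose by 1.04 in MCD.

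In the insulin-like growth factor axis, the set of binding proteins, receptors and signal carriers around Igf2, 3 of 13 genes rose and 3 fell in MCD, 0 rose and 1 fell in 4-week STAM, and 7 rose and 3 fell in 10-week STAM livers. Of all tested genes, 22.6% rose and 20.1% fell in MCD, 6.52% and 3.27% at 4 weeks, and 25.3% and 22.5% at 10 weeks. The axis counts in MCD were thus near the shares of all genes. The gene that fell at 4 weeks was Igfals, a carrier of circulating growth factor, by 0.74, and 2 genes fell without Ctrl replicate 1. Igfals also fell in MCD (by 1.46) and in 10-week STAM (by 1.53), and Igfbp1, a binding protein induced when insulin is low, rose by 2.54 in MCD and by 3.43 in 10-week STAM. Igf1, the adult liver's main growth factor, fell by 1.40 in MCD. With total-read scaling 8 axis genes rose and 2 fell in MCD, and 8 rose and 1 fell in 10-week STAM livers. With quantile normalization 6 rose and 3 fell in MCD, and 9 rose and 2 fell at 10 weeks.

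Of 13 other imprinted growth genes with a row in the tables, 4 rose and 2 fell in MCD, where 22.6% of all genes rose and 20.1% fell. In 4-week STAM 1 rose, where 6.52% of all genes rose. In 10-week STAM livers 4 rose and 2 fell, where 25.3% of all genes rose and 22.5% fell. With total-read scaling 7, 1 and 8 rose and none fell. H19, Meg3 and Rian, from the same imprinted regions as Igf2 and Dlk1, are not analysed here. Plagl1, a zinc finger factor, rose by 2.08 and Mest by 1.77 in 10-week STAM livers, and Cdkn1c, a brake on the cell cycle, rose by 1.93 in MCD livers. The gene that rose at 4 weeks was Phlda2, with 85 reads in STAM and 26 in Ctrl livers (log2 2.00, limma adjusted p = 0.0343), and its call was lost with quantile normalization (0.0863), without a variance trend (0.0563) and without any 1 of 8 libraries, all but Ctrl replicates 1 and 4 (0.0529 to 0.0836).

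Relatives of Gpc3 and Ly6d were examined in a list of 12 glypican and Ly6 genes, of which 10, 10 and 9 were tested in the 3 comparisons. In MCD 2 rose and 2 fell, in 4-week STAM 3 rose, and in 10-week STAM livers 7 rose and 1 fell. The shares of all genes that rose were 22.6%, 6.52% and 25.3%, and those that fell were 20.1%, 3.27% and 22.5%. Gpc1, another glypican, rose by 2.00 in 4-week STAM and by 3.01 in 10-week STAM, reaching 54.4 ± 5.13 CPM against 6.80 ± 1.26 CPM in 10-week Ctrl livers (SD, n = 5 each, limma adjusted p = 7.12e-09). Gpc4 moved the other way, falling by 0.76 in MCD and by 0.54 in 10-week STAM. Ly6a and Ly6e rose by 2.21 and 1.17 in 4-week STAM livers. In MCD livers, where Ly6d rose, Ly6a fell by 0.59 (limma adjusted p = 0.0339). With quantile normalization 4 genes of the list rose at 10 weeks.

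A list of 20 further oncofetal and liver tumour genes rose in part in all 3 comparisons. In MCD 7 rose and 1 fell of 16 tested, in 4-week STAM 7 rose of 20 tested, and in 10-week STAM 12 rose of 19 tested. Of all genes, 22.6%, 6.52% and 25.3% rose. The median log2 fold changes of the list were 1.06, 0.68 and 1.59. With quantile normalization 6, 5 and 8 rose, and 1 still fell in MCD. Spink1, a trypsin inhibitor raised in liver cancer, had 228 reads in MCD and 5 in CD, 408 in 4-week STAM and 29 in Ctrl, and 55 in 10-week STAM and 3 in Ctrl livers. Its call at 10 weeks was lost with quantile normalization (limma adjusted p = 0.0511). Sall4, a fetal hepatoblast factor, had 23 reads in 4-week STAM and 0 in Ctrl livers, and 91 in 10-week STAM and 2 in Ctrl livers, and passed in both (limma adjusted p = 0.000426 and 2.04e-05). Ccnd1, which encodes cyclin D1, reached 347 ± 24.0 CPM in MCD and 40.2 ± 18.8 CPM in CD livers (SD, n = 4 each, log2 3.21, limma adjusted p = 1.35e-05). Tff3, a secreted trefoil peptide, fell by 1.65 in MCD but rose by 3.17 in 4-week STAM and by 2.64 in 10-week STAM. Its MCD call was lost without MCD replicate 2, 3 or 4 (0.0548 to 0.0940), its 4-week call without STAM replicate 1 (0.0520) and its 10-week call with quantile normalization (0.0673).

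**Figure D4:**
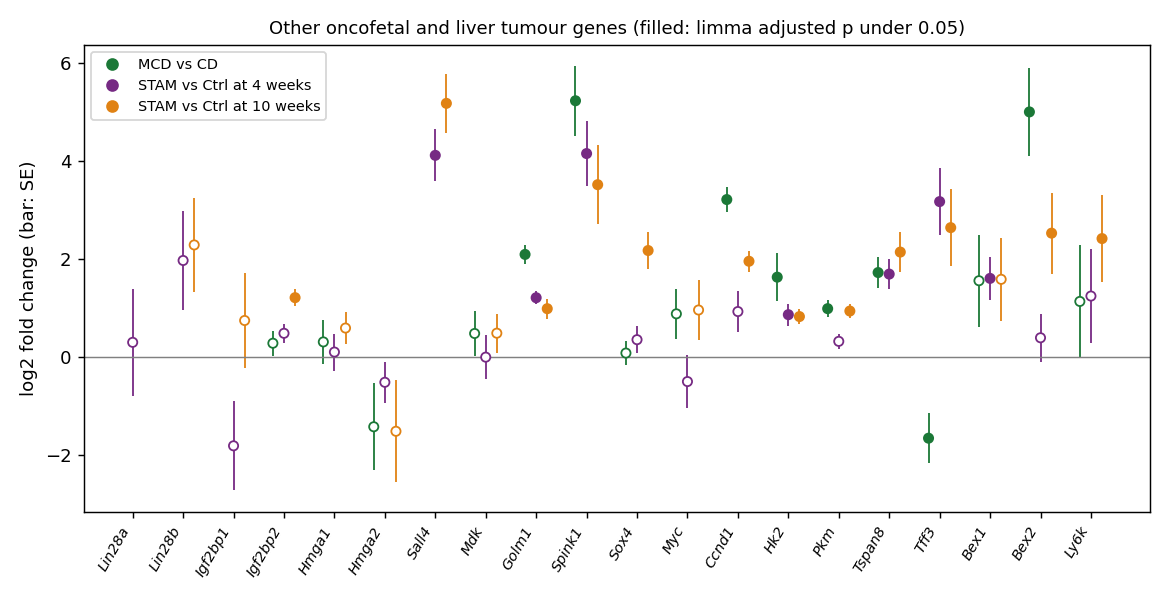
Log2 fold change, with its SE as a bar, of the further oncofetal and liver tumour genes on the vertical axis, in MCD (green), 4-week STAM (purple) and 10-week STAM livers (orange), filled where the limma adjusted p was under 0.05; genes that did not pass the filter have no point. Spink1 is higher in all 3 comparisons, Sall4 in the STAM comparisons, and Tff3 changes side; the fitted values of Sall4 and Spink1 rest on few control reads and depend on the prior count.

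Of 12 cell division genes, 10 rose in MCD, 0 in 4-week STAM and 11 in 10-week STAM livers, and Ccnb1, the mitotic cyclin, rose by 3.12 in MCD and by 4.39 in 10-week STAM. The count at 4 weeks depended on Ctrl replicate 1, and without it 4 of the 12 fell. The sums were 91.0 to 156 CPM in MCD and 47.4 to 81.5 CPM in CD livers, and 165 to 270 CPM in 4-week STAM and 264 to 426 CPM in 4-week Ctrl livers other than replicate 1, which was at 37.0 CPM. They were 78.0 to 115 CPM in 10-week STAM and 41.5 to 54.1 CPM in 10-week Ctrl livers. Their part in the members' results was not tested.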

How the data were processed

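Liver poly(A) RNA of 28 samples was sequenced from both ends with a stranded kit, per the labels' protocols, and the submitters' processing notes name STAR 2.4.2a and mm10. The sources used here do not give the counter, its strand setting or the authors' test. The deposited sample columns hold log2 CPM that the authors scaled within each table. This unit was read from the values: with the prior removed, every value was a whole number of reads within 0.05 reads. The deposited tables also hold the authors' log2 fold changes and adjusted p-values. All sample columns were used, and groups came from sample titles.

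The members, the other gene lists, the tests and the alternatives were chosen with earlier results of these data known. A count model was planned for raw counts only, so the log2 values were tested with limma 3.58.1 (R 4.3.3, statmod 1.5.0), with a variance trend and robust estimation, after removal of genes up to percentile 25 of the mean value, and p-values were adjusted by Benjamini-Hochberg over all genes tested. Differences of effects used 1 fit over 4 groups. Exact permutation p-values and counting intervals (95%) came from scipy 1.17.1. CPM and reads in the text were recovered from the deposited log2 values. Intervals and the floor of 3 reads cover counting error only. Of each other list, at most the 3 genes with the largest change per direction among those called were named, with Zhx2, Zbtb20 and Alb named whatever their values. Alternatives were another filter, a prior of 2 reads, 2 scalings, voom, no trend, a replicate block and leaving out each library; their use on the other lists was added after seeing the data. Sequences came from RefSeq, overlaps and the other Afp start from GENCODE. Fits were tested on simulated data. Markers of other cells were further listed: stellate and mesenchymal genes (7 rose and 1 fell of 10 in MCD, 0 and 1 at 4 weeks, 6 and 2 at 10 weeks), 8 erythroid and fetal blood genes (0 and 1, 0 and 0, 2 and 1), 6 mesothelial genes (2 rose in MCD only) and 8 pancreas genes (none called in any table, where 2, 3 and 1 were tested).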

Additional observations from a re-analysis of the deposited data

Results flagged for a closer look

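Among 42 groups of libraries examined for the 7 genes, 3 held a library far from the rest of its group, where chance alone gives about 5% of groups. Afp in CD replicate 2 was at a log2 CPM of 2.27 (93 reads), below 2.91 to 2.92 in the other CD livers. Ly6d in 4-week STAM replicate 2 was at 4.96, below 5.59 to 5.74 in the other STAM livers, and still above every Ctrl liver. Dlk1 in 10-week Ctrl replicate 3 was at -4.06, which is 1 read, where the other Ctrl livers were at -6.39, which is 0 reads.

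Of 21 tests of a difference between effects on the 7 genes, 8 passed (limma, adjusted p under 0.05). Between 10-week and 4-week STAM effects these were Igf2 (-5.06), Ly6d (1.85) and Igf2bp3 (8.03). Between the MCD effect and the 10-week STAM effect they were Afp (-1.50) and Igf2bp3 (-6.48). Between the MCD effect and the 4-week STAM effect they were Igf2 (-6.23), Dlk1 (-4.37) and Gpc3 (2.41). Of all genes, 20% were called in either direction between the 10-week and 4-week STAM effects. Between the MCD effect and the 10-week STAM effect 27.9% were called, and between the MCD effect and the 4-week STAM effect 26.1%.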

How the results depend on the processing

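Of 357 values of the 7 genes under alternatives, 324 kept their direction and side of the threshold, 18 lost the call, 6 gained it and 9 changed sign. Sign changes concerned differences that had not passed: Igf2 in MCD (0.24 with total-read scaling, -0.42 to 0.21 with a library left out, 0.12 without CD replicate 3, 0.21 without MCD replicate 1), Dlk1 in MCD (0.24 without CD replicate 1, -1.18 to 0.24 over the libraries) and Gpc3 in 4-week STAM (0.013 with total-read scaling, 0.12, 0.16, 0.06 and 0.17 without Ctrl replicate 2, 3 or 5 or STAM replicate 3, with a lowest value of -0.40 over the libraries). Zbtb20 at 4 weeks was at 0.02 without Ctrl replicate 1. The causes were not tested.

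The number of the 7 called ranged, with each library left out, from 4 to 4 in MCD, 4 to 5 in 4-week STAM and 4 to 6 in 10-week STAM livers. For the difference of 10-week and 4-week effects it was 3 and ranged from 3 to 5, with 5 under total-read scaling and 2 under voom or a filter at mean log2 CPM above 0, which tested 4 of the 7. For MCD minus 10-week STAM it was 2 and ranged from 1 to 3, with 1 under total-read scaling, quantile normalization, a prior of 2 reads, voom, no variance trend, or a filter at mean log2 CPM above 0. For MCD minus 4-week STAM it was 3 and ranged from 3 to 3, with 4 under total-read scaling and 1 under that filter, which tested 4 of the 7. Without CD replicate 1 the 3 called were Igf2, Igf2bp3 and Gpc3.

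Replicate numbers did not pair the samples (correlations of same-numbered libraries -0.122 to 0.008). With the replicate number as a block, 4, 4 and 4 of the 7 were called in the 3 comparisons and 3, 2 and 3 in the differences. The block gave a 4-week count over all genes of 848, in place of 1500, and leaving out 4-week STAM replicate 1 gave 982. Depth limits Dlk1, and Igf2bp3 in the MCD table, to a few reads.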

Other observations

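Genes whose values lay closest to each member over the 28 libraries were ranked among 11073 genes by the root mean square difference of log2 CPM, each taken from its own control mean. This is a description of likeness, with no test, and libraries of a table share their controls and scaling. The genes closest to Afp were Ifi27l2b (0.637), Pls1 (0.638) and Phlda3 (0.641), where a flat gene would be at 2.11. For Cd24a they were Rragd (0.397), Emp1 (0.410) and Mfge8 (0.411), against 1.2 for a flat gene. Ly6d was nearest to Mmp12 (1.13), Gldn (1.15) and Themis (1.24), against 4.25, and Gpc3 to Slc7a1 (0.617), Chaf1a (0.654) and Abhd2 (0.660), against 1.27. Igf2 and Igf2bp3 had less close neighbours: Lad1 (1.30), Cml5 (1.65) and Ly6a (1.79) for Igf2, against 2.68, and Rgs16, Psrc1 and Lepr (1.88 each) for Igf2bp3, against 3.60. Dlk1 was not ranked, since it had a mean of 2.43 reads per library.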
